A study of Mus musculus with 6 samples.

Results

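The genes described here are the insulin-like growth factor Igf1, its receptor Igf1r, the insulin receptor Insr, the receptor substrates Irs1 and Irs2, and the binding proteins Igfbp2, Igfbp3, Igfbp4, Igfbp5 and Igfbp6. They are 10 of the 23420 gene symbols in the count table, and each symbol was found in it. The set was selected on how its genes differed between the cell populations compared here, so the differences between the groups are given for these genes as a description, without a test. The filter on low counts kept 7 of the 10 members, and Irs2, Igfbp2 and Igfbp6 were left with too few counts.

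Total RNA came from eEnd2 cells, a mouse line of embryonic endothelial origin, stably transfected with human Integrin-β1 that carries GFP in its extracellular part. The chimera was either wildtype (β1-WT-GFP) or had glutamine in place of a lysine of the cytoplasmic tail, which mimics a constitutively acetylated residue (β1-K794Q-GFP), and the comparison asks how the transcriptome differs between these states of the integrin tail. There were 3 untreated, confluent cultures of each group, named A, B and C, in which order values are given throughout, and both groups share the expression construct, which is driven by a fragment of the human β-actin promoter. GFP-positive cells were sorted into a low and a high population, without a statement of the one used for each culture. No deletion of the mouse Integrin-β1 gene is described in either group, and whether the sorted populations were clonal is not stated. The labels speak of different cultures of the sorted cells, and whether the cultures of a group share a sorted population is not stated. No repeat of the transfection is described. Differences between the transfected populations thus cannot be told apart from those between the constructs, and the spread between cultures does not cover them.

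Insulin and the insulin-like growth factors act through related receptor tyrosine kinases, IGF1R and INSR, which phosphorylate the adaptor proteins IRS1 and IRS2 and thereby engage the PI3K-AKT-mTOR and RAS-ERK pathways. The secreted IGF-binding proteins hold the growth factors in the extracellular fluid and matrix and set how much of them reaches the receptor, and several also bind matrix or cell surface components themselves. In endothelium both receptors are present, and the pathway is known for its part in growth, survival and nitric oxide production.

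The cultures held between 9589826 and 15287191 counts, at which the 3 counts that a count of 0 allows correspond to 0.196 to 0.313 CPM (counts scaled to the library total), a limit that covers counting error only. All 12 endothelial markers (Pecam1, Cdh5 and others) were above 3 counts in 5 cultures and 11 of 12 in β1-K794Q-GFP culture B, where Cldn5 was at 0, and their summed level ranged from 8343 to 9466 CPM in β1-WT-GFP and from 6932 to 13154 CPM in β1-K794Q-GFP cultures. Of 12 mesenchymal markers, Dcn, Lum, Thy1 and Postn were at 0 throughout, while the summed level was 87.3 to 195 CPM in β1-WT-GFP cells, most of it from Prrx1, and 2.84 to 3.85 CPM in β1-K794Q-GFP cells. Without Prrx1 the other 11 summed to 0.787, 1.30 and 30.7 CPM in β1-WT-GFP and to 3.56, 3.75 and 2.84 CPM in β1-K794Q-GFP cells, and 7 of the 12 were above 3 counts in wildtype culture C, against 1 to 3 in the other cultures. Their part in the differences given below was not tested. Haematopoietic markers summed to 48.5 to 89.8 CPM and 32.8 to 105 CPM in these groups, with Lyz2, Tyrobp and Cd3e at 0. Most of these sums came from Cd68, at 76.5, 88.6 and 37.2 CPM in β1-WT-GFP and 71.1, 103 and 31.0 CPM in β1-K794Q-GFP cells. Csf1r had 153 counts in wildtype culture C and 4 to 9 in the other cultures. The 6 epithelial markers summed to at most 0.592 CPM. β1-WT-GFP culture C and β1-K794Q-GFP culture B stood apart from the other cultures of their groups, and values without them are given with the fold changes. Wildtype cultures A and B were alike: 1.27% of the 11608 tested genes differed between them by a factor of at least 2, whereas culture C differed from A in 24.8% and from B in 23.5% of them. Among β1-K794Q-GFP cultures the share was 8.8% for the pair A and C, 18.3% for A and B, and 23.3% for B and C.

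The regions upstream of 3 members are shown because these genes are the receptor and binding protein that passed both thresholds below and the ligand, whose levels did not overlap between the groups. Each is the stretch of 250 bases that ends at the base before the RefSeq start, on the strand of the gene in GRCm38.p6. Igf1 lies on the plus strand, with the stretch at chr10:87860861-87861110, downstream of the first start that GENCODE M21 gives for the gene. For Igf1r it lies at chr7:67952007-67952256, plus strand, and for Igfbp5 at chr1:72874866-72875115, minus strand. Capitals mark matches to the GC box GGGCGG, the TATA box TATAAA, the box with the letters CCAAT, the binding core GTAAACA of FOXO factors and the E-box CACGTG, each searched on both strands.
Igf1: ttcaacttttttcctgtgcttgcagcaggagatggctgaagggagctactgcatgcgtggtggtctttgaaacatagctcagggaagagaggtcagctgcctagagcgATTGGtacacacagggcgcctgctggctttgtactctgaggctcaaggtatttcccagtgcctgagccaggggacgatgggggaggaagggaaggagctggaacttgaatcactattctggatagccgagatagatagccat
Igf1r: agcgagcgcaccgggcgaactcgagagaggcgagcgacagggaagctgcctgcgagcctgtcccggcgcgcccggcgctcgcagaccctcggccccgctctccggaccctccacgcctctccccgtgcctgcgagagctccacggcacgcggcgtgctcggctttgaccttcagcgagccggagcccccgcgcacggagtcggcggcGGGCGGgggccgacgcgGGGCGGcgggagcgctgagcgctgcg
Igfbp5: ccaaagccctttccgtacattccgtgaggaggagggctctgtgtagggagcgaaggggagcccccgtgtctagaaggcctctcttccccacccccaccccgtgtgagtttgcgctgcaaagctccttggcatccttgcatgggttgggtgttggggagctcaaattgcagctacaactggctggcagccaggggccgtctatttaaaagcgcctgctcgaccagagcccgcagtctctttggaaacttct

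Guanine and cytosine made up 77.6% of the Igf1r stretch, 58.8% of that of Igfbp5 and 52.8% of that of Igf1, against a median of 52.4% over 32851 RefSeq stretches of the same length. The Igf1r sequence holds GC boxes that begin 43 and 26 bases before the start, a motif found in 32.7% of all stretches. In the Igf1 sequence the CCAAT motif, read on the opposite strand as ATTGG, begins 142 bases before the start, and 33.8% of all stretches hold this motif. The letters searched for do not occur in the Igfbp5 stretch. The TATA box was found in 12.4%, the FOXO core in 3.17% and the E-box in 6.02% of all stretches. Sequences were found for 9 of the 10 members, the exception being Insr. The stretch of Igfbp4 has TATAAA 28 bases before the start. Those of Irs1, of Irs2 and of RefSeq entry 1 of Igfbp2 each hold an E-box and at least 1 GC box. The stretch of entry 2 of Igfbp2 holds none of the motifs.

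Igf1 encodes the secreted growth factor that activates IGF1R (chromosome 10, 87858265 to 87937042). Its normalized level was 641, 647 and 5.71 CPM in β1-WT-GFP cells, and 1247, 1415 and 669 CPM in β1-K794Q-GFP cells. Every β1-K794Q-GFP culture was above every β1-WT-GFP culture, but β1-K794Q-GFP culture C exceeded β1-WT-GFP culture B by only 1.03-fold, and β1-WT-GFP culture C lay 112-fold below culture A of its own group. The fitted log2 fold change was 1.36 (SE 1.30), and it was 0.80 without β1-WT-GFP culture C. The window of 25 genes around Igf1 on chromosome 10, Igf1 included, was higher in the mutant cells. Its median was 0.72, 0.74 and 0.66 on the log2 scale in cultures A, B and C. With this regional level taken out of the fit, the log2 fold change of Igf1 was 0.61. In bulk RNA, fewer cells expressing a gene cannot be told apart from less RNA per cell.

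Igf1r encodes the receptor for IGF1 and IGF2 (chromosome 7, 67952827 to 68233668). It was at 50.5, 50.4 and 48.1 CPM in β1-WT-GFP cells and at 13.2, 9.97 and 16.9 CPM in β1-K794Q-GFP cells. The wildtype cultures were nearly equal and the mutant cultures all lay below them, with β1-K794Q-GFP culture C, the highest of its group, 2.86-fold below the lowest wildtype culture. The means were 49.7 ± 1.33 CPM (SD, n = 3) in β1-WT-GFP and 13.3 ± 3.45 CPM (SD, n = 3) in β1-K794Q-GFP cells, a 3.72-fold lower level in the mutant cells. The log2 fold change was -1.89 (SE 0.24), and it lay between -2.10 and -1.72 when each culture was left out in turn. The regional level around Igf1r in the mutant cultures was -0.06, -0.15 and -0.06, and taking it out gave -1.82.

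Insr encodes the insulin receptor, which can also pair with IGF1R in hybrid receptors (chromosome 8, 3122061 to 3279617). Its level was 114, 111 and 82.1 CPM in β1-WT-GFP cells, and 150, 483 and 123 CPM in β1-K794Q-GFP cells. All mutant cultures lay above the wildtype cultures, cultures A and C by little and culture B by far. Its log2 fold change of 1.30 (SE 0.55) became 0.42 without β1-K794Q-GFP culture B, in which the neighbouring genes on chromosome 8 were also higher, by a median of 0.72 on the log2 scale. With the regional level taken out, it was 0.94.

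**Figure D1:**
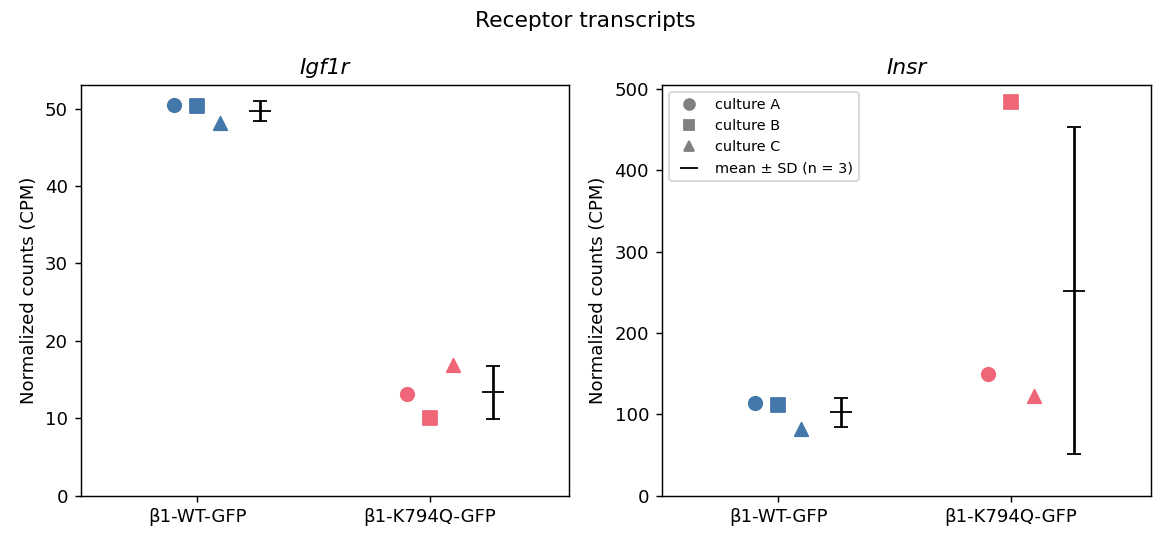
Igf1r (left) and Insr (right) in normalized counts (CPM, linear axes from 0) in the 3 β1-WT-GFP and 3 β1-K794Q-GFP cultures, with the mean ± SD beside them. Igf1r sat between 48.1 and 50.5 CPM in the wildtype and between 9.97 and 16.9 CPM in the mutant cultures, whereas the high mean of Insr in the mutant cells came with 1 culture at 483 CPM.

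Per kilobase of exon, taken over the merged exons of all annotated isoforms, Insr transcripts exceeded Igf1r transcripts in all cultures. Comparisons between genes on this scale depend on that annotation, since the isoforms expressed are not known. The ratio of Insr to Igf1r was 2.76, 2.69 and 2.08 in β1-WT-GFP cells, and 13.9, 59.2 and 8.92 in β1-K794Q-GFP cells. The ratios of the groups did not overlap, as follows from the levels above. The sum of both receptors was 11.3, 11.1 and 8.84 CPM per kilobase in the wildtype cultures and 11.7, 35.8 and 9.96 CPM per kilobase in the mutant cultures, and these sums overlapped between the groups.

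Irs1 and Irs2 encode the docking proteins through which both receptors reach PI3K. Irs2 was near the limit of detection, as was Irs1 in mutant cultures A and B. Irs1 (chromosome 1, 82233101 to 82291416) had 9, 9 and 56 counts in β1-WT-GFP cells, which is 0.787, 0.900 and 3.90 CPM. In β1-K794Q-GFP cells it had 3, 1 and 12 counts, which is 0.289, 0.0987 and 1.03 CPM. The groups overlapped, since β1-K794Q-GFP culture C was above wildtype cultures A and B, and culture C had the highest level in each group. On the log2 scale the fitted difference was -1.94 (SE 1.00). It was -0.78 without β1-WT-GFP culture C and -3.20 (SE 1.16), past both thresholds given below, without β1-K794Q-GFP culture C. Irs1 shares 2822 exon bases with Gm9747 on the opposite strand, and whether reads were counted by strand is not stated, so these counts are uncertain. Irs2 (chromosome 8, 10984681 to 11008458) had 0 counts in all 3 β1-WT-GFP cultures and 6, 2 and 2 counts in β1-K794Q-GFP cells. No fold is given, because these counts are around the 3 counts that a count of 0 allows, and 162 exon bases are shared with 9530052E02Rik on the opposite strand.

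The binding proteins differed from each other in level by orders of magnitude. Igfbp5, which binds extracellular matrix as well as the growth factors (chromosome 1, 72857932 to 72874884), was at 1743, 1575 and 0.348 CPM in β1-WT-GFP cells and at 7.61, 3.16 and 6.19 CPM in β1-K794Q-GFP cells. Wildtype culture C held 5 counts of Igfbp5, where cultures A and B held 19924 and 15757. The groups therefore overlapped, with β1-WT-GFP culture C below every mutant culture and the other wildtype cultures at least 207-fold above every mutant culture. This gave a log2 fold change of -7.61 (SE 2.36). Wildtype cultures A and B alone decide this value, and the spread within the wildtype group exceeded the difference between wildtype culture C and any mutant culture.

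Igfbp4, a soluble inhibitor of IGF action (chromosome 11, 99041244 to 99054392), was the most even binding protein. It was at 349, 345 and 396 CPM in β1-WT-GFP cells and at 175, 195 and 550 CPM in β1-K794Q-GFP cells. Mutant cultures A and B lay below all wildtype cultures and mutant culture C above them. The fitted log2 fold change, -0.25 (SE 0.47), turned to 0.037 without β1-K794Q-GFP culture A.

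Igfbp3, the main carrier of IGFs in blood (chromosome 11, 7206086 to 7213923), was at 6.39, 8.90 and 22.1 CPM in β1-WT-GFP cells and at 44.9, 0.493 and 20.3 CPM in β1-K794Q-GFP cells. The mutant cultures held both the highest and the lowest value, which were 90.9-fold apart. The log2 fold change of 0.81 (SE 1.22) turned to -0.26 without β1-K794Q-GFP culture A. With β1-WT-GFP culture C and β1-K794Q-GFP culture B both left out, a choice made after seeing the data, it was 2.11 (SE 0.43), past both thresholds given below. These cultures hold the highest wildtype and the lowest mutant value of Igfbp3, so leaving them out necessarily raises the fold change. Igfbp2 (chromosome 1, 72824503 to 72852474) had 0 counts in every culture, which allows at most 0.313 CPM in the shallowest of them, while its neighbour Igfbp5 lies 5.457 kb away. Igfbp6 (chromosome 15, 102144362 to 102149511) had 0, 1 and 1 counts in the wildtype and 2, 0 and 0 counts in the mutant cultures, so that a difference was not detectable at this depth.

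**Figure D2:**
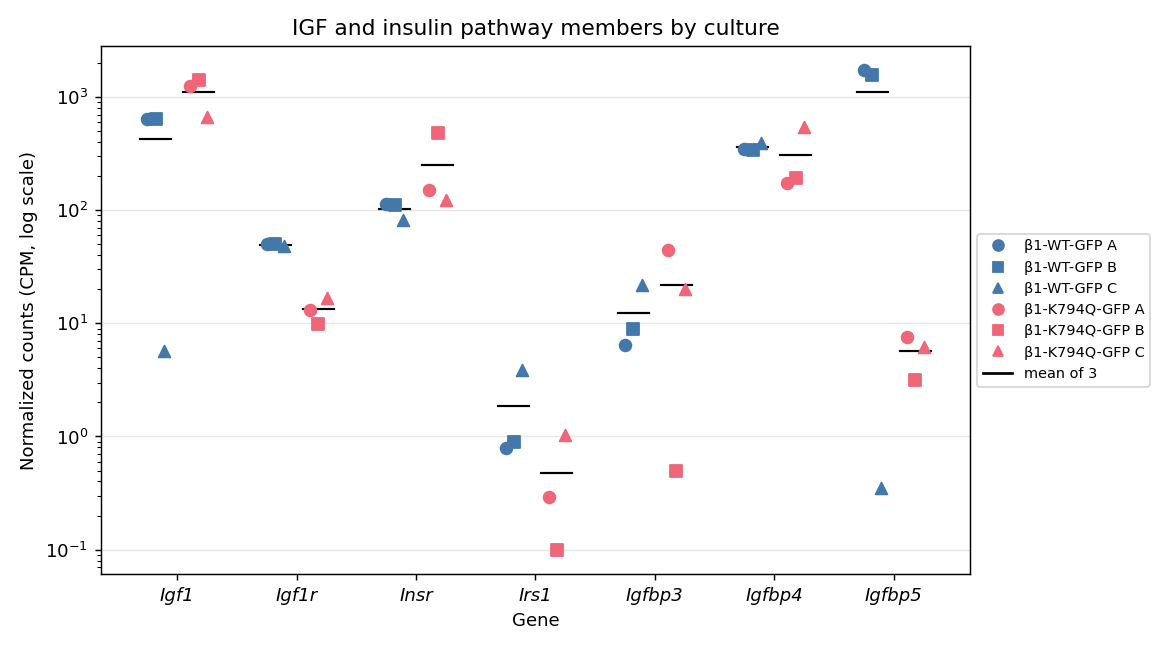
Normalized counts (CPM, log axis) of the 7 members kept by the filter, with a point for each culture and a line at the mean of 3 cultures. Igf1r separates the groups with little spread, whereas Igf1 and Igfbp5 in wildtype culture C lie far below the rest of the group.

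Summed per kilobase of exon, the 5 binding proteins reached 371, 343 and 96.9 CPM per kilobase in β1-WT-GFP cells, and 55.3, 44.8 and 132 in β1-K794Q-GFP cells. Igfbp5 made up 78.1% and 76.4% of this sum in wildtype cultures A and B but 0.0598% in culture C, and 2.29%, 1.17% and 0.781% in the mutant cultures. Igfbp4 took 21.3% and 22.7% in wildtype cultures A and B, 92.6% in wildtype culture C, and 71.5%, 98.5% and 94.3% in mutant cultures A, B and C. In the shares of these 5 binding proteins β1-WT-GFP culture C thus lay with the mutant cultures, with Igfbp4 leading, and not with the other wildtype cultures. Igfbp3 had its highest share, 25.9%, in β1-K794Q-GFP culture A.

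**Figure D3:**
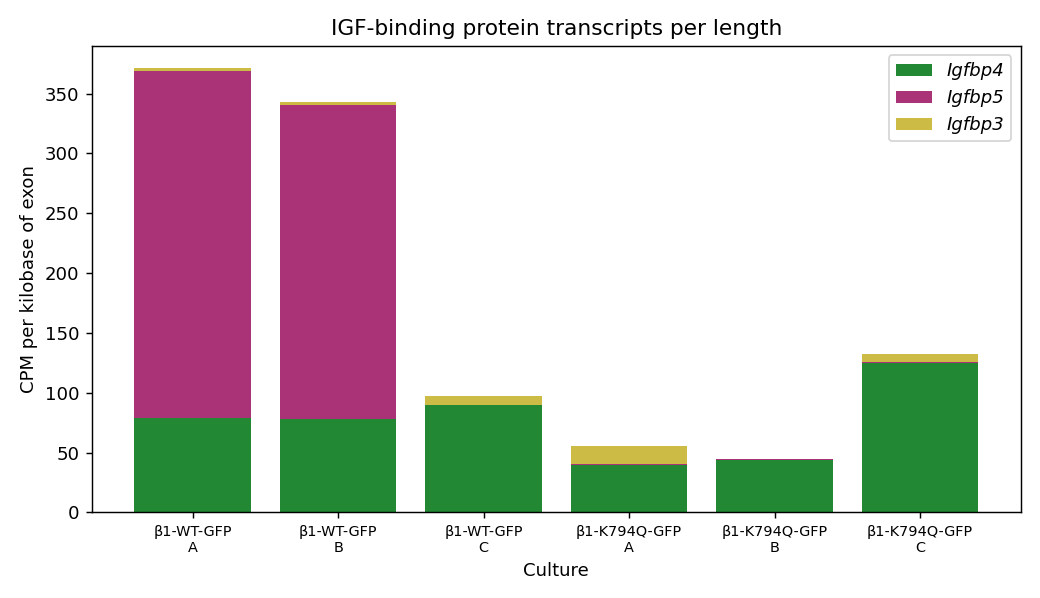
Level of Igfbp4, Igfbp5 and Igfbp3 in CPM per kilobase of exon (linear axis from 0), stacked for each culture. Igfbp5 makes up most of the bar in wildtype cultures A and B, and Igfbp4 in the other 4 cultures.

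On the same scale Igfbp5 ranked first among the members in wildtype cultures A and B, followed by Igfbp4 and Igf1, while Igf1 ranked first in β1-K794Q-GFP cultures A and B. In wildtype cells the level of Igf1r, 2.87 to 3.01 CPM per kilobase, lay within the range of Igfbp3, 2.04 to 7.05, so these neighbours in the order did not differ beyond their spread. In the mutant cells the same held for Igf1, at 67.6 to 143 CPM per kilobase, and Igfbp4, at 39.5 to 124, and for Igfbp5, at 0.526 to 1.27, and Igf1r, at 0.594 to 1.00.

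Of the 7 members tested, 2 (Igf1r and Igfbp5) were past both thresholds of the study's methods, a change of 2-fold or more at an unadjusted p of 0.05 or less, against 5.19% of all 11608 genes. Both were lower in β1-K794Q-GFP cells, as were 1.71% of all genes at these thresholds, and 0 members were higher at them, against 3.48%. After correction over all 11608 genes, only 21 genes had an adjusted p of 0.05 or less (edgeR quasi-likelihood test). In 3 members (Igf1, Igf1r and Insr) the cultures of the groups did not overlap, against 16.6% of all genes. The members' median log2 fold change was -0.25, beside -0.02 for all genes. Since the members were selected on this contrast, nothing is read from these counts. With β1-WT-GFP culture C and β1-K794Q-GFP culture B both left out, the log2 fold changes were 0.59 for Igf1, -1.73 for Igf1r, 0.30 for Insr, 0.077 for Igfbp4 and -7.89 for Igfbp5.

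**Figure D4:**
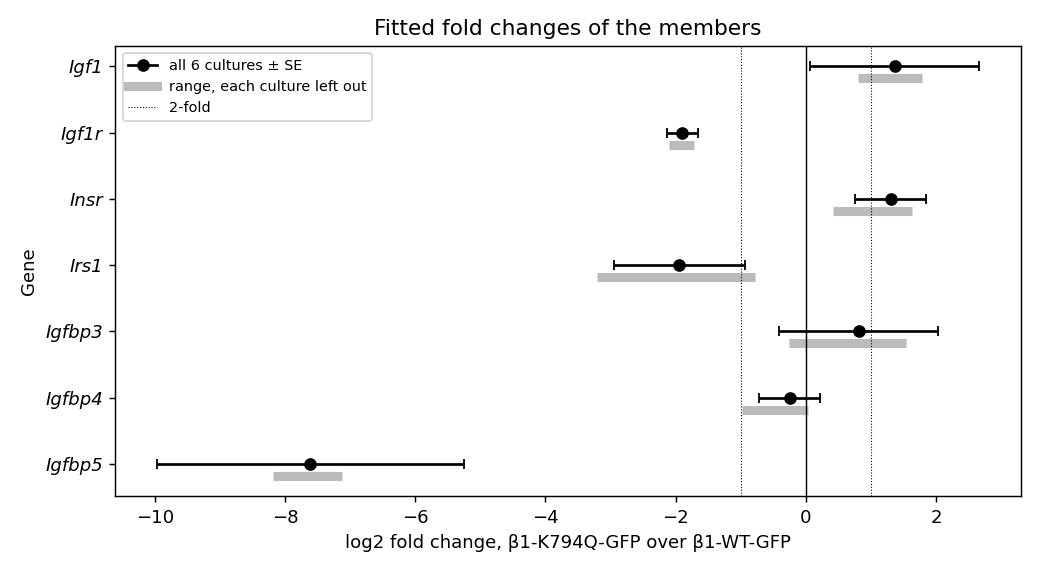
Fitted log2 fold change of β1-K794Q-GFP over β1-WT-GFP cells with its SE (points and bars), and the range of the fits that leave out each culture in turn (grey). Igf1r has the smallest SE, 0.24, and Igfbp5 the largest, 2.36, while the grey ranges of Igfbp3 and Igfbp4 cross 0.

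The members also varied between cultures of the same group, which is given as a description, since this spread is part of the values that selected them. No tested member was 2-fold apart between wildtype cultures A and B. Culture C differed at least 2-fold from culture A in 4 of 7 members (Igf1, Irs1, Igfbp3 and Igfbp5), and from culture B in the same 4, beside the 24.8% and 23.5% of all genes given above. In the mutant group Insr, Igfbp3 and Igfbp5 differed at least 2-fold between cultures A and B, and Irs1, Igfbp3 and Igfbp4 between A and C. Cultures B and C were at least 2-fold apart in 5 of 7 members. These counts stand beside 18.3%, 8.8% and 23.3% of all genes. Igf1r was the only tested member that stayed within 2-fold in all 6 pairs of cultures of the same group.

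The other genes of the IGF and insulin system were taken from a list written from general knowledge. Of its 28 genes 16 were tested, and only Grb10, which encodes an adaptor that binds both receptors and restrains their signalling, was past both thresholds, against 5.19% of all genes. Grb10 was at 1008, 1093 and 2343 CPM in β1-WT-GFP cells, and at 427, 191 and 592 CPM in β1-K794Q-GFP cells. All mutant cultures lay below all wildtype cultures, with a log2 fold change of -1.88 (SE 0.54) that did not pass the correction over all genes (adjusted p = 0.287, edgeR quasi-likelihood test). It was past both thresholds whichever of the 6 cultures was left out, with a log2 fold change of -1.37 without β1-WT-GFP culture C and -1.54 without β1-K794Q-GFP culture B, and it was -1.03 (SE 0.24) without both. The list's median log2 fold change was 0.02, and the adaptor genes Shc1 (-0.56, SE 0.17, adjusted p = 0.32 in the edgeR fit) and Dok4 (0.99, SE 0.30, adjusted p = 0.30) had an unadjusted p of 0.05 or less at less than 2-fold. These, and Igf2, Igf2r, Pik3cb, Map2k2 and Gadd45a below, were chosen after their values were seen.

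Igf2, the second growth factor of the family, was at 470, 346 and 45.5 CPM in β1-WT-GFP cells and at 37.6, 7.40 and 199 CPM in β1-K794Q-GFP cells, which overlap. Igf2r, which takes up IGF2 for degradation, was at 245, 255 and 160 CPM and at 356, 280 and 282 CPM in the same order. The log2 fold changes were -1.82 (SE 1.27, adjusted p = 0.74 in the edgeR fit) for Igf2 and 0.48 (SE 0.25, adjusted p = 0.61) for Igf2r. Per kilobase of exon, Igf1 and Igf2 together reached 147, 126 and 8.52 CPM in the wildtype and 132, 144 and 102 CPM in the mutant cultures. Igf1 made up 44.1%, 51.9% and 6.77% of this ligand sum in β1-WT-GFP cells, and 95.0%, 99.1% and 66.1% in β1-K794Q-GFP cells. The mutant cultures A and B thus had a ligand sum near that of wildtype cultures A and B, with nearly all of it from Igf1.

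Downstream of the receptors, 0 of 33 tested genes of the PI3K-AKT-mTOR list were past both thresholds with edgeR's quasi-likelihood test, its likelihood ratio test or DESeq2, and 1 (Pik3cb) had an unadjusted p of 0.05 or less. All 33 had a fold change below 2, as did 10420 of all 11608 genes, and their median log2 fold change was -0.11. The RAS-ERK list gave 0 of 12 with each of these tests, 1 gene (Map2k2) at an unadjusted p of 0.05 or less, and a median of -0.02. Of 12 tested FOXO-responsive genes, which are induced when AKT is inactive, 0 were past both thresholds with the quasi-likelihood test and 0 had an unadjusted p of 0.05 or less, while DESeq2 and the likelihood ratio test each gave 1, Gadd45a. Gadd45a was at 10.8, 10.9 and 77.4 CPM in β1-WT-GFP and at 8.09, 8.39 and 11.7 CPM in β1-K794Q-GFP cells, so that wildtype culture C alone stood out. Over all 11608 genes, 603 (5.19%) were past both thresholds with the quasi-likelihood test, 727 with the likelihood ratio test and 695 with DESeq2. An unadjusted p of 0.05 or less was found for 1180 of them with the quasi-likelihood test. Lists of 12 to 33 genes are too short to tell their counts from these shares. The smallest adjusted p in these 3 lists was 0.302 in the edgeR fit. Transcript levels do not measure phosphorylation, through which these pathways are switched.

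**Figure D5:**
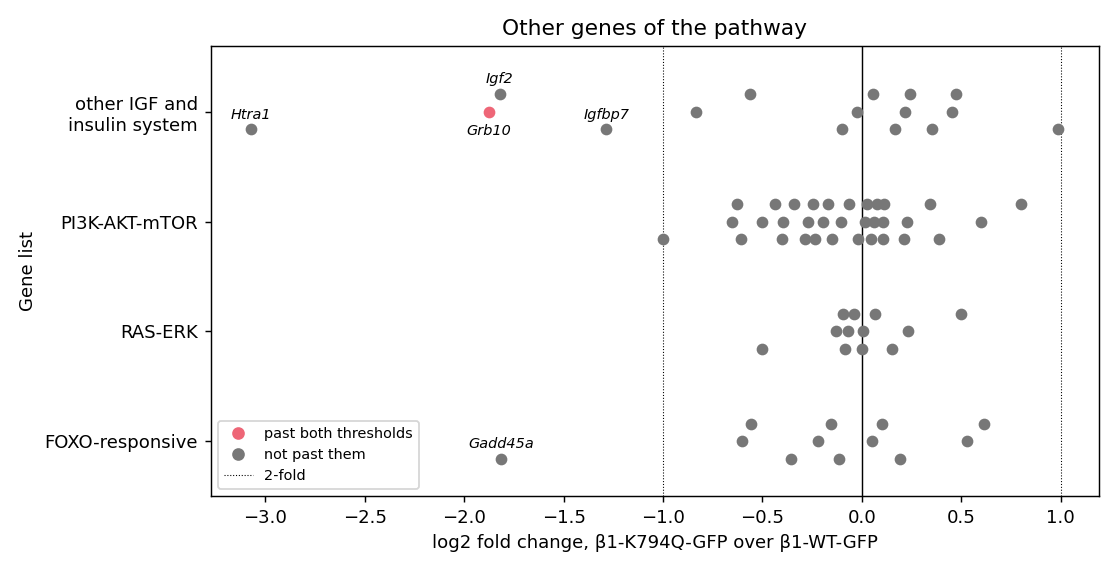
Log2 fold change of β1-K794Q-GFP over β1-WT-GFP cells for each tested gene of 4 lists (1 point per gene, the outermost named). Only Grb10 was past both thresholds, against 5.19% of all genes. The 33 PI3K-AKT-mTOR genes and 12 RAS-ERK genes lay within 2-fold.

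The genes nearest to the members past both thresholds were compared with them. Around Igf1r, Synm lies 193 kb to the left (log2 fold change 2.63, SE 1.10, adjusted p = 0.496 in the edgeR fit) and Arrdc4 lies 503 kb to the right (-1.43, SE 1.05, adjusted p = 0.755). Neither passed both thresholds. Rpl37a, 144 kb to the left of Igfbp5, had a log2 fold change of -0.37 (SE 0.19, adjusted p = 0.617 in the edgeR fit) and Tns1, 1035 kb to its right, one of -0.03 (SE 0.55, adjusted p = 0.992). Neither of these neighbours was past both thresholds.

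Over the 6 cultures, the tested genes whose log2 CPM followed Igf1r most closely were Unc13b (Pearson r = 1.000), Wnt5a (0.994) and Dusp12 (0.993). Unc13b was at 20.7, 21.5 and 18.9 CPM in β1-WT-GFP and at 0.770, 0.395 and 1.55 CPM in β1-K794Q-GFP cells, so that it had the same order of mutant cultures as Igf1r. Closest to Igfbp5 were Hook2 (0.996), Arhgap39 (0.995) and Tyk2 (0.994), of which Arhgap39 was at 37.4, 35.1 and 7.94 CPM in wildtype and 14.5, 10.5 and 11.9 CPM in mutant cells. Igf1 was followed by Fancg, 9530082P21Rik and St7l, and Insr by Carhsp1, Ppt2 and Emc9. The closest genes were Fam110b, Fzd6 and Bcar1 for Irs1, E130012A19Rik, Exosc1 and Sgcd for Igfbp3, and Poc5, Yif1b and Sbk1 for Igfbp4. These values describe 6 points that share 2 groups and were picked from 11608 genes. Among the members themselves r ranged from -0.876, between Igf1 and Irs1, to 0.742, between Irs1 and Igfbp4.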

How the data were processed

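Total RNA of 3 β1-WT-GFP and 3 β1-K794Q-GFP cultures was sequenced from libraries depleted of ribosomal RNA. The authors deposited read counts per mouse gene symbol, not normalized, in 6 columns, with 0 further columns of per-sample values. The submitters' processing notes name bcl2fastq 2.20.0, STAR 2.7.4a, HTSeq 0.9.1, edgeR 3.38.4 and mm10, and the strand setting of the counting is not given in the sources used here.

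The model was fitted with edgeR 4.0.16 (R 4.3.3) to genes passing filterByExpr, libraries were normalized with TMM, and groups were compared by the quasi-likelihood F-test (two-sided) over all 11608 tested genes, with Benjamini-Hochberg adjustment. SE is the log2 fold change divided by the square root of F. CPM values use the TMM library sizes, and log2 CPM a prior count of 2. Levels per kilobase use the merged exons of all isoforms in GENCODE M21 (GRCm38), which is matched by symbol, and upstream sequences come from RefSeq (GRCm38.p6). The regional level is the median over a window of 25 tested genes, with the gene itself included and fewer genes at chromosome ends. It is taken of log2 CPM, with a constant added to the CPM, minus the mean of this value in the wildtype cultures.

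The members and lists were chosen with earlier results of these data known. Genes named are the members, every gene of the 4 pathway lists past both thresholds, the 3 genes with the highest Pearson r to each tested member, the nearest tested gene on each side of a member past both thresholds, and those said to be chosen after their values were seen, to which Stc2, and Htra1 and Igfbp7 in a plot, belong. Some markers of cell types are named as well. Alternatives were RLE normalization, other filters, DESeq2 1.42.0, the likelihood ratio test, the culture letter as a block, the regional level in the offset and leaving out each culture. The fits were tested on simulated data. Hras, of the RAS-ERK list, was not analysed here. Python 3.11.15 was used for tables (pandas 2.3.3) and plots (matplotlib 3.10.9).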

Additional observations from a re-analysis of the deposited data

How the results depend on the processing

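With no filter on low counts, 916 genes and 4 members (Igf1r, Igfbp5, Insr and Irs2) were past both thresholds, in place of 603 and 2. Leaving out each culture gave 501 to 992 genes (992 without β1-WT-GFP culture C, 942 without β1-K794Q-GFP culture B), 1 to 3 members (1 without β1-K794Q-GFP culture B), 1 to 3 other IGF and insulin system genes, 0 to 1 PI3K-AKT-mTOR genes (1 without β1-WT-GFP culture C or β1-K794Q-GFP culture B) and 0 to 1 FOXO-responsive genes (1 without β1-WT-GFP culture A or B). The extra IGF and insulin system gene was Dok4 without β1-WT-GFP culture A or B or β1-K794Q-GFP culture A, Stc2 without β1-WT-GFP culture C, and Dok4 and Igf2 without β1-K794Q-GFP culture C. With β1-WT-GFP culture C and β1-K794Q-GFP culture B both left out, an alternative chosen after seeing the data, the counts were 1661 genes, 3 members (Igf1r, Igfbp3 and Igfbp5), 3 other IGF and insulin system genes, 2 PI3K-AKT-mTOR genes and 2 FOXO-responsive genes, and Igfbp4 turned to 0.077. The likelihood ratio test gave 2 other IGF and insulin system genes and 1 FOXO-responsive gene, and DESeq2 gave 1 FOXO-responsive gene. The log2 fold change of Igfbp3 ranged from -0.26 to 1.53 and that of Igfbp4 from -0.98 to 0.037 when each culture was left out. Calls of members in all alternative fits are a description only and lend no support, since the members were selected on this contrast. Insr was past both thresholds with DESeq2, the likelihood ratio test, either other filter, and without β1-K794Q-GFP culture A or C. Igfbp5 was no longer past both thresholds without β1-K794Q-GFP culture A, B or C, with log2 fold changes of -7.87, -7.31 and -7.68. The causes were not tested, except that fewer cultures or more genes entered some fits.

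Deviations of same-lettered cultures from their group means correlated weakly, at 0.09, 0.05 and 0.10 for A, B and C. Those of differently lettered cultures correlated at -0.15 to 0.10. β1-WT-GFP cultures A and C correlated best with the mutant culture of the same letter, and culture B with β1-K794Q-GFP culture A, at 0.10. Whether the letters pair the samples cannot be told from values this low. With the letter as a replicate block, 571 genes and 2 members, Igf1r and Irs1, were past both thresholds. Under the block Igf1 went from 1.36 to 2.45, Igfbp3 turned to -0.17, Igfbp5 (-6.67) was no longer past them and Irs1 (-2.02) was.

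Counts limit what is said of Irs1, Irs2, Igfbp2 and Igfbp6, and the spread between 3 cultures, not depth, limits Igf1, Igfbp3 and Igfbp5.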
